A study of Homo sapiens with 6 samples.

Results

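The 10 genes described here encode the retinoblastoma pocket proteins, parts of the DREAM complex and the late partners of its MuvB core: *RB1*, *RBL1*, *RBL2*, *TFDP1*, *TFDP2*, *LIN9*, *LIN37*, *LIN54*, *MYBL2* and *FOXM1*. They were chosen by symbol, 10 of the 60480 gene identifiers in the table, and all 10 had enough counts to be tested among 19778 genes. mRNA was sequenced from OE-19 cells, an established line from an adenocarcinoma of the gastric cardia that serves as a model of adenocarcinoma of the esophagogastric junction. There were 3 libraries from cells with a control hairpin (shControl) and 3 libraries from cells in which IGF2BP3, a reader protein of N6-methyladenosine in mRNA, was knocked down by shRNA (IGF2BP3 KD). Both groups are cells of the same line in the same medium, with no named treatment besides the hairpins. All results rest on this line alone. The control columns are labelled Puro and their sample titles read shControl, and what Puro stands for is not given. The sources used here do not say which hairpin was used in each library, whether the cells were a pool or a clone, or whether the libraries come from separate cultures. If they do not, the p-values measure technical spread only.

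Pocket proteins hold the E2F transcription factors in check until cyclin-dependent kinases phosphorylate them. RB1 mainly binds the activator E2Fs, while RBL1 and RBL2 join E2F4 or E2F5, a DP partner (TFDP1 or TFDP2) and the MuvB core of LIN9, LIN37, LIN52, LIN54 and RBBP4 to form DREAM, which represses cell cycle genes in quiescent and early G1 cells. Later in the cycle the same MuvB core leaves the pocket proteins, binds MYBL2 and then recruits FOXM1, and in this form it activates genes of G2 and mitosis. The complexes reach DNA through E2F sites and through the cell cycle genes homology region (CHR), which LIN54 contacts.

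Several of the 10 genes hold such letters next to their own start, and the stretches below show the clearest matches. RefSeq windows of 300 bases on GRCh38.p14, from 250 bases before to 50 after a start, matched 9 of the 10 genes (all but *FOXM1*) with 16 windows. An E2F word was either TTGGCGC or the like sequence TTCGCGC, or else TTCCCGC, or a match to TTGCCGC, or finally TCCCGCC. A CHR word was TTTGAA or its variant TTCGAA, and the NF-Y word was CCAAT. Both strands were searched, and TTCCCGC can overlap with the word TCCCGCC. Capitals mark the matches, positions count from the start at 0, and the words were chosen with these sequences in view.
*RBL1*, minus strand, chr20:37096005-37096034, E2F words at -25 and -15: cagctgcagattTTCGCGCgctTTGGCGCa
*MYBL2*, plus strand, chr20:43667063-43667092, E2F word at -39: gccgacgcgcttGGCGGGAgatagaaaagt
*TFDP1*, plus strand, chr13:113584621-113584650, E2F word at -120: agggcgccgaagGCGCGAAaaggcgcgcag
*LIN54*, minus strand, chr4:83010906-83010935, CHR word at -100: ggcccttgtgcgTTTGAAggttggcggggc
*LIN9*, minus strand, chr1:226309150-226309179, CHR word at -3: cggcgggcagccTTTGAAaaagcggcgcgg
An E2F word was present in the windows of 7 of the 9 genes (9 of 16 windows), against 23.2% of all 35116 windows. A CHR word was present in 5 genes (7 of 16 windows), against 16.4% of all windows, and CCAAT in 3 genes (3 of 16 windows), against 34.6%. Windows of a gene can share bases, and both *LIN54* windows hold the same E2F and CHR matches, which are thus counted in each. *RB1* held none of the words, but its window (chr13:48476200-48476499) belongs to a RefSeq start inside the gene. Both *TFDP2* windows with a CHR word (chr3:142029131-142029430 and chr3:142028577-142028876) also belong to starts inside the gene. The *TFDP2* window at chr3:142149495-142149794 holds no CHR word. These matches are letters in a window and not measured binding.

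Total counts per library were 53424071 to 69989087. *IGF2BP3* had 105.7 to 112 CPM (read counts scaled to library size with edgeR's TMM factors) in control and 12.6 to 14.4 CPM in IGF2BP3 KD libraries. The epithelial markers *EPCAM*, *KRT8*, *KRT18*, *KRT19*, *CDH1* and *ERBB2* all had at least 462 CPM in each library. The summed level of 6 fibroblast markers was 21.2 to 24.5 CPM in control and 29.9 to 34.4 CPM in IGF2BP3 KD libraries, nearly all from *COL1A1*, with *COL1A2* and *LUM* at 0 counts throughout. That of 5 leukocyte markers was 33.4 to 38.7 and 49.2 to 54.7 CPM, nearly all from *CD68*, with *CD3E* and *MS4A1* at 0 counts. The 4 endothelial markers together had 0 to 0.563 CPM in control and 0.161 to 0.371 CPM in IGF2BP3 KD libraries. The part of these markers in the results below was not tested.

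Apart from *LIN37*, the estimated changes of the 10 genes in IGF2BP3 KD cells were small, from -0.25 to 0.11 on the log2 scale. The estimate for *LIN37* was -0.64, with a 95% interval from -2.43 to 1.15 that leaves its change open. *LIN54*, the DNA-binding subunit of MuvB, fell and *TFDP1*, the main E2F partner, rose, each by less than 0.25 on the log2 scale, and the other 8 genes did not pass the test. This is 1 gene lower and 1 higher of 10, against 10.6% lower and 9.87% higher among all tested genes and 20.4% in either direction (edgeR's quasi-likelihood test at an adjusted p under 0.05, with Benjamini-Hochberg correction over 19778 genes). The share of members called is thus near the background and is no result about the group. Groups did not overlap in 4 of the 10 genes, 2 lower and 2 higher, against 17.8% lower, 18.0% higher and 35.8% in all among tested genes. The median log2 fold change of the 10 genes was -0.085, against 0.0098 over all tested genes. In these bulk libraries, a different share of cells in a cell cycle phase and a different amount of RNA per cell cannot be told apart. The plot of CPM by library shows how narrow most of these spreads were.

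**Figure D1:**
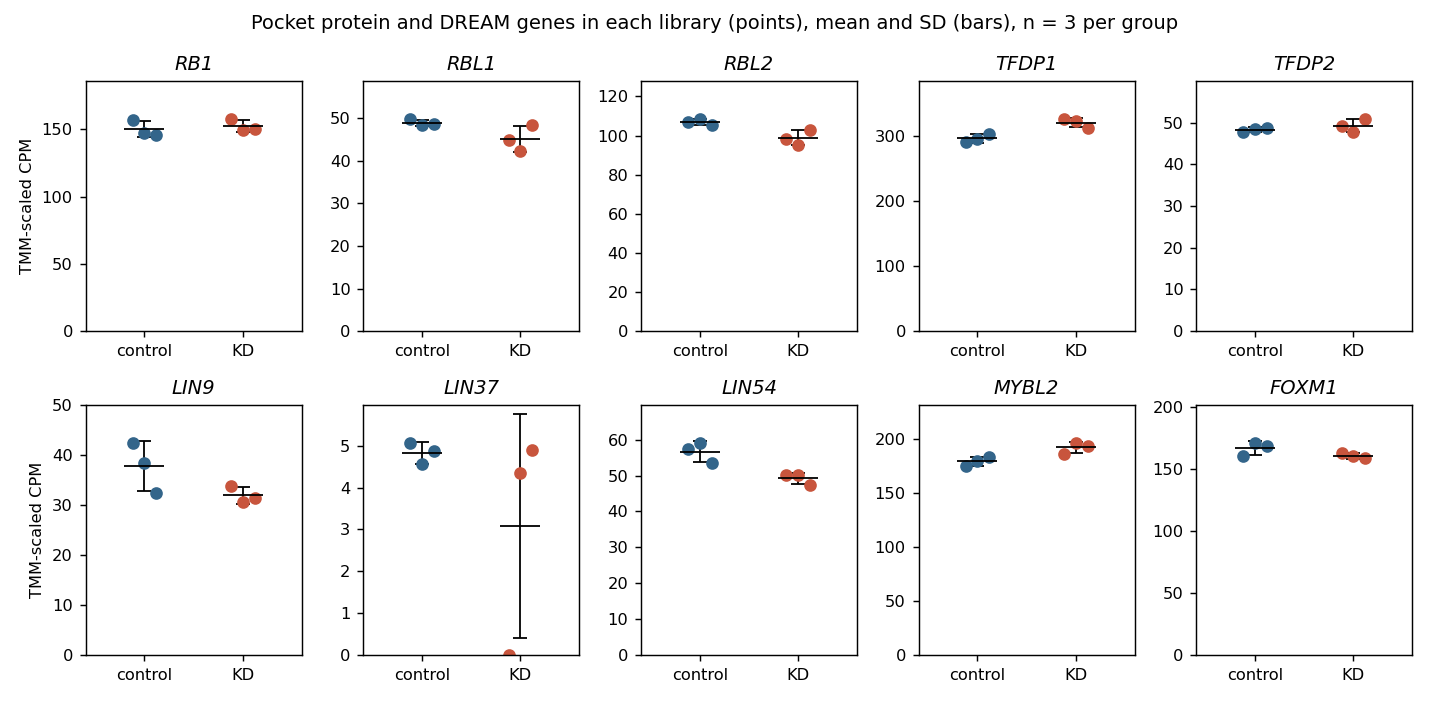
Expression of the 10 genes in TMM-scaled CPM (y axes, each from 0) in 3 control (blue) and 3 IGF2BP3 KD libraries (red), with each library as a point and bars for the mean and SD. *TFDP1* and *MYBL2* lie higher and *RBL2* and *LIN54* lower in all 3 IGF2BP3 KD libraries, and *LIN37* is at 0 in IGF2BP3 KD replicate 1.

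Among the pocket proteins, *RB1* (ENSG00000139687, chromosome 13, 48303744 to 48599436, plus strand), the tumor suppressor that gave the family its name, had 157, 147 and 146 CPM in control replicates 1, 2 and 3 and 157, 149.6 and 150.2 CPM in IGF2BP3 KD replicates 1, 2 and 3. The groups overlapped almost fully. The log2 fold change was 0.023 with a 95% interval from -0.062 to 0.11 (adjusted p = 0.754 in edgeR's test). *RBL2* (ENSG00000103479, chromosome 16, 53433977 to 53491648, plus strand), the pocket protein that prevails in resting cells, had 107, 108 and 106 CPM in control and 98.4, 95.1 and 103 CPM in IGF2BP3 KD libraries. Each IGF2BP3 KD value lay below each control value, but the gene did not pass the test. Its log2 fold change was -0.12 with a standard error of 0.039 and a 95% interval from -0.20 to -0.028 (adjusted p = 0.0633 from the same test). DESeq2 called *RBL2* lower (adjusted p = 0.0238), as did the edgeR fit on genes with at least 10 counts in every library (adjusted p = 0.0392) and the fit without IGF2BP3 KD replicate 3 (adjusted p = 0.0391). The other alternative edgeR fits did not call it, with adjusted p from 0.0536 (RLE scaling) to 0.224 (without IGF2BP3 KD replicate 2).

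*RBL1* (ENSG00000080839, chromosome 20, 36996349 to 37095997, minus strand), whose own start holds the paired E2F words shown above, had 49.7, 48.3 and 48.6 CPM in control and 44.8, 42.2 and 48.4 CPM in IGF2BP3 KD libraries. IGF2BP3 KD replicate 3 reached the level of the control libraries, so that the groups overlapped. The log2 fold change was -0.12 with a 95% interval from -0.24 to 0.013 (adjusted p = 0.211 from the same test). It was -0.070 without IGF2BP3 KD replicate 2 and -0.17 without IGF2BP3 KD replicate 3, and *RBL1* was not called in any alternative fit. *RBL1* shares 3.6% of its exonic bases with a gene on the opposite strand, and *RB1* shares none. *RBL2* shares 8.9% with ENSG00000279344 and 7.5% with the coding gene *AKTIP*, both on the opposite strand. The strand setting of the authors' counting is not given in the sources used here, so the counts from shared bases are uncertain.

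The DP proteins pair with E2Fs to make DNA-binding dimers, in repressor and activator complexes alike. *TFDP1* (ENSG00000198176, chromosome 13, 113584721 to 113641473, plus strand) had 290.1, 295 and 304 CPM in control and 326, 323 and 313 CPM in IGF2BP3 KD libraries. All 3 IGF2BP3 KD values lay above the highest control value. The gene rose by a log2 fold change of 0.11 with a standard error of 0.029 (adjusted p = 0.0168 from the same test). The call was lost without control replicate 2 (adjusted p = 0.0631), without IGF2BP3 KD replicate 1 (adjusted p = 0.0886) and without IGF2BP3 KD replicate 2 (adjusted p = 0.0751), and with no filter on low counts (adjusted p = 0.0756). *TFDP2* (ENSG00000114126, chromosome 3, 141944428 to 142149544, minus strand) ranged from 47.8 to 48.8 CPM in control and from 47.8 to 50.8 CPM in IGF2BP3 KD libraries. Its log2 fold change was 0.028 with a 95% interval from -0.078 to 0.13. It was 0.018 without control replicate 1, 0.049 without IGF2BP3 KD replicate 2 and 0.0032 without IGF2BP3 KD replicate 3, and no fit called it.

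Of the MuvB subunits, *LIN54* (ENSG00000189308, chromosome 4, 82909973 to 83012926, minus strand) had 57.4, 59.1 and 53.5 CPM in control and 50.1, 50.3 and 47.4 CPM in IGF2BP3 KD libraries. All 3 IGF2BP3 KD values lay below the lowest control value. The gene fell by 0.20 on the log2 scale, with a standard error of 0.054 (adjusted p = 0.0199 from the same test). The call was lost without control replicate 1 (adjusted p = 0.0508), without control replicate 2 (adjusted p = 0.0781) and without IGF2BP3 KD replicate 3 (adjusted p = 0.0780). *LIN9* (ENSG00000183814, chromosome 1, 226231149 to 226309869, minus strand), which links MuvB to MYBL2, had 42.5, 38.5 and 32.5 CPM in control and 33.8, 30.7 and 31.4 CPM in IGF2BP3 KD libraries. Control replicate 3 stood apart from the other control libraries and lay within the IGF2BP3 KD range. The log2 fold change was -0.25 with a standard error of 0.089 (adjusted p = 0.0775). Without control replicate 3 it was -0.35 and passed the test (adjusted p = 0.0118), while without control replicate 1 it was -0.16. *LIN9* also passed with DESeq2 (adjusted p = 0.0220).

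*LIN37* (ENSG00000267796, chromosome 19, 35748361 to 35754519, plus strand), the MuvB subunit that DREAM needs for repression, had counts of 347, 317 and 285 in control replicates 1, 2 and 3, and of 0, 270 and 308 in the IGF2BP3 KD replicates. The 0 in IGF2BP3 KD replicate 1 allows up to 0.0556 CPM (3 counts, counting error only), while the other 5 libraries had 4.35 to 5.07 CPM. The coding gene ENSG00000188223 (chromosome 19, 35745678 to 35754519, plus strand) covers 752 of the 935 bases of the MANE Select transcript of *LIN37* on the same strand. This neighbour was listed with 0, 25 and 53 counts in the control libraries, against 228, 40 and 31 counts after IGF2BP3 KD, in the same order. The library with no *LIN37* counts was thus the library with the most counts for this neighbour, and the library with the most *LIN37* counts had none for it. Summed, the counts were 347, 342 and 338 in control and 228, 310 and 339 in IGF2BP3 KD libraries. The level of the sum was 5.25 ± 0.459 CPM in control cells and 4.87 ± 0.588 CPM in IGF2BP3 KD cells (SD, n = 3). Its log2 fold change was -0.11 (adjusted p = 0.680 from the same test on the summed table), against -0.64 for *LIN37* as deposited (standard error 0.81, 95% interval from -2.43 to 1.15). Without IGF2BP3 KD replicate 1, the log2 fold change of *LIN37* was -0.068. How reads were divided between the overlapping genes was not tested. *LIN37* also shares 1180 exonic bases with ENSG00000267439, a lncRNA gene on the opposite strand that had 186 to 303 counts per library.

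**Figure D2:**
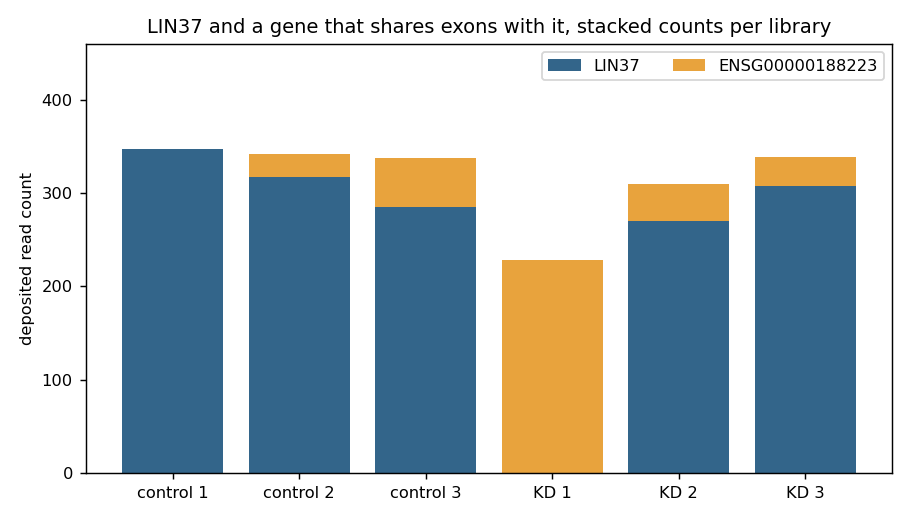
Deposited read counts of *LIN37* (blue) and of the overlapping gene ENSG00000188223 (orange), stacked, in each of the 6 libraries. IGF2BP3 KD replicate 1 has 0 and 228 counts, control replicate 1 has 347 and 0, and the stacks of the other 4 libraries reach 310 to 342.

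Neither of the late factors passed the test. *MYBL2* (ENSG00000101057, chromosome 20, 43667019 to 43716495, plus strand), which binds MuvB in S phase, had 175, 179.8 and 183 CPM in control and 186, 196 and 194 CPM in IGF2BP3 KD libraries. Every IGF2BP3 KD value lay above every control value, yet the gene missed the threshold. Its log2 fold change was 0.10 with a standard error of 0.033 and a 95% interval from 0.028 to 0.17 (adjusted p = 0.0523 from the same test). With DESeq2 it was called higher (adjusted p = 0.0286), and over all alternatives the adjusted p lay between 0.0286 and 0.203. *FOXM1* (ENSG00000111206, chromosome 12, 2857680 to 2877174, minus strand), the forkhead factor that follows it onto mitotic genes, had 161, 171 and 169 CPM in control and 163, 160.3 and 159 CPM in IGF2BP3 KD libraries. Control replicate 1 lay within the IGF2BP3 KD range. The log2 fold change was -0.055 with a 95% interval from -0.13 to 0.019 (adjusted p = 0.315). It was -0.085 without control replicate 1 (adjusted p = 0.0738). *FOXM1* shares 782 exonic bases, 15.9% of its exons, with *ITFG2* on the opposite strand.

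Levels between genes were compared per length, as CPM per kb of exon in GENCODE v44. In control cells the order was *TFDP1* (79.1 ± 1.84, SD, n = 3), *MYBL2* (64.6 ± 1.49), *FOXM1* (33.9 ± 1.13), *RB1* (23.3 ± 0.927), *RBL2* (13.2 ± 0.175), *LIN9* (8.52 ± 1.13), *LIN54* (8.38 ± 0.424), *RBL1* (8.20 ± 0.124), *TFDP2* (4.06 ± 0.0427) and *LIN37* (1.71 ± 0.0923). The ranges of *LIN9*, *LIN54* and *RBL1* overlapped between neighbours, and all other neighbours were separate in every control library. In IGF2BP3 KD cells the order was the same except that *RBL1* (7.57 ± 0.522) and *LIN9* (7.19 ± 0.369) exchanged places on either side of *LIN54* (7.28 ± 0.235). The DP genes lie far apart in this order, with most of the DP transcripts from *TFDP1*. Of the summed per-kb level of the 3 pocket genes, *RB1* made up 51.6% to 53.1% in control and 52.9% to 55.5% in IGF2BP3 KD libraries, *RBL2* 28.7% to 30.1% and 27.5% to 28.7%, and *RBL1* 18.2% to 18.6% and 16.8% to 18.4%. Exon lengths come from all annotated transcripts, so these levels are approximate, and the order and the pocket gene shares depend on that choice. *LIN37* was divided by 2820 bases, against 935 in its MANE Select transcript, and *TFDP2* by 11897 against 9880. For *LIN9* these lengths were 4442 and 2998, for *RBL2* 8110 and 4854, and for *RBL1* 5956 and 5686. The place of *LIN37* below *TFDP2* and the shares hold for the lengths used only, and others were not tested.

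**Figure D3:**
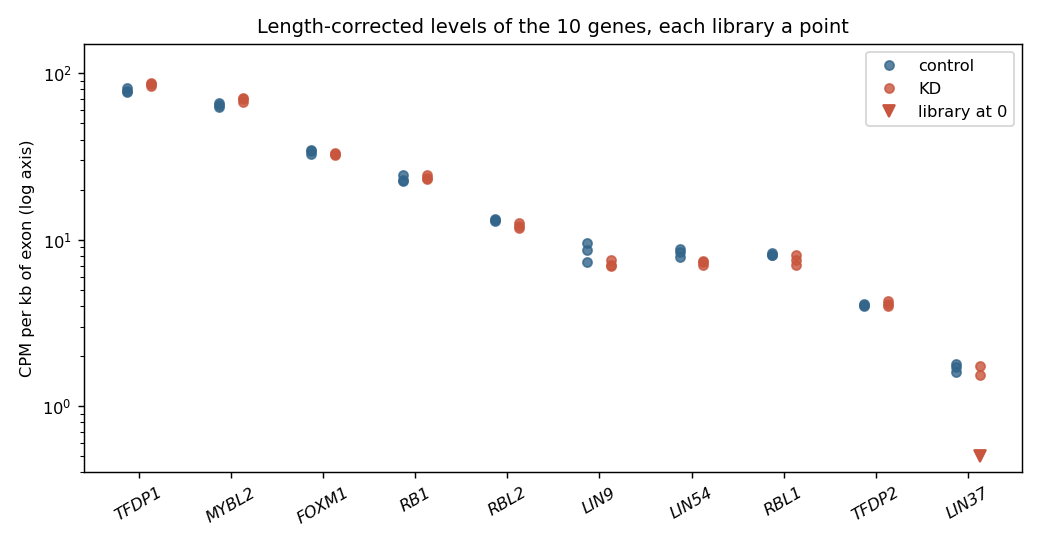
Levels of the 10 genes in CPM per kb of exon (log axis), ordered by the control mean, with each control (blue) and IGF2BP3 KD (red) library as a point and a triangle for the library at 0. *TFDP1* and *MYBL2* lie above 60 and *LIN37* below 2 CPM per kb, and *LIN9*, *LIN54* and *RBL1* share the range from 6.91 to 9.57.

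Within-library ratios asked whether related members changed unequally. The log2 ratio of *MYBL2* to *FOXM1* was 0.12, 0.072 and 0.12 in control and 0.20, 0.29 and 0.29 in IGF2BP3 KD libraries. The groups did not overlap, and the ratio was higher by 0.16 in IGF2BP3 KD cells (exact permutation p = 0.1, two-sided, the smallest p that 3 against 3 libraries allow, and 0.267 with Benjamini-Hochberg adjustment over 4 ratios). The ratio of *RB1* to *RBL1* was 1.62 ± 0.036 in control and 1.76 ± 0.11 in IGF2BP3 KD cells, and that of *TFDP1* to *TFDP2* was 2.62 ± 0.019 and 2.70 ± 0.070 (log2, SD, n = 3, exact permutation p = 0.2 for each). The ratio of *RBL1* to *RBL2* was -1.13 ± 0.031 and -1.13 ± 0.043 (exact permutation p = 1). This design cannot reach p below 0.1 for a single ratio.

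Other parts of DREAM, together with the kinase gene *DYRK1A* that encodes no subunit, were compared from a list of 5 genes (the other DREAM genes). *E2F4*, the main repressor E2F of the complex, had 57.3, 63.5 and 56.9 CPM in control and 51.0, 49.6 and 46.8 CPM in IGF2BP3 KD libraries. It fell by 0.27 on the log2 scale with a standard error of 0.058 (adjusted p = 0.00666, edgeR). *DYRK1A*, the kinase that phosphorylates LIN52 to assemble DREAM, had 60.0, 62.1 and 64.2 CPM in control and 47.4, 58.0 and 47.9 CPM in IGF2BP3 KD libraries. Its fall was 0.28 on the log2 scale with a standard error of 0.074 (adjusted p = 0.0202). *LIN52* (14.8 ± 0.605 and 13.6 ± 1.45 CPM), *RBBP4* (158 ± 2.46 and 157 ± 2.57 CPM) and *E2F5* (6.03 ± 0.990 and 6.34 ± 0.845 CPM, SD, n = 3) did not pass. The count was 2 lower and 0 higher of 5 by edgeR, against 10.6% lower and 9.87% higher of all tested genes. It was the same with DESeq2, against 2416 lower and 2074 higher of 14581 genes with an adjusted p. At an unadjusted p under 0.05 in edgeR it was also the same, against 3024 lower and 3061 higher of 19778 genes. Between 1 and 2 were lower with each library left out in turn. Without control replicate 2, control replicate 3, IGF2BP3 KD replicate 1 or IGF2BP3 KD replicate 3, 1 was lower.

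Most of the E2F genes outside DREAM fell. Of 6 genes, 5 were lower and 0 higher by edgeR, by DESeq2 and at an unadjusted p under 0.05. The median log2 fold change was -0.56. Of all tested genes, 10.6% were lower and 9.87% higher by edgeR. Over all genes, 2416 of 14581 were lower by DESeq2 and 3024 of 19778 at an unadjusted p under 0.05. *E2F6*, a repressor that works without pocket proteins, had 23.0, 22.1 and 22.5 CPM in control and 13.5, 13.9 and 14.3 CPM in IGF2BP3 KD libraries, which is -0.70 ± 0.067 on the log2 scale (SE, adjusted p = 3.1e-05, edgeR). The values were -0.59 for *E2F3*, -0.58 for *E2F1* and -0.55 for *E2F2*, the activators that RB1 restrains, and -0.34 for *E2F8*. *E2F7* was not called (log2 fold change -0.048). Apart from *LIN37*, none of the 10 genes had a change as large as that of *E2F8*.

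**Figure D4:**
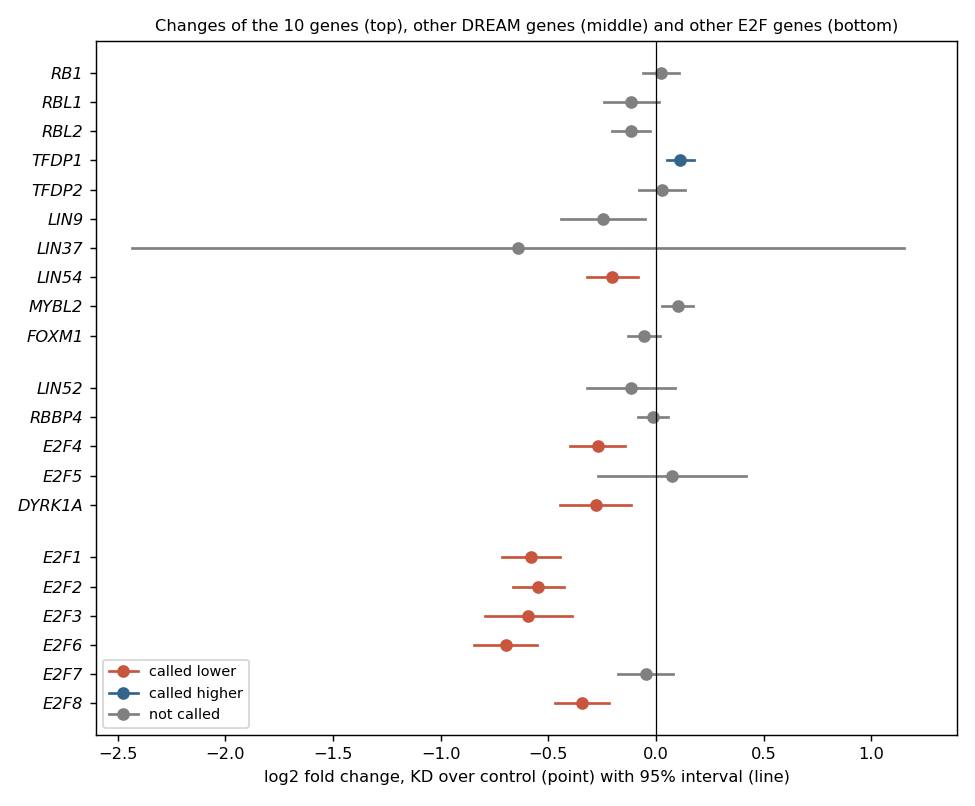
Log2 fold changes between IGF2BP3 KD and control cells (points) with 95% intervals (lines) from edgeR's quasi-likelihood fit for the 10 genes (top), other DREAM genes (middle) and other E2F genes (bottom), red for called lower, blue for called higher and grey for not called. Except for *LIN37*, whose interval spans -2.43 to 1.15, the 10 genes lie between -0.25 and 0.11, and *E2F1*, *E2F2*, *E2F3* and *E2F6* lie below -0.5.

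Upstream of the pocket proteins, 6 of 15 G1 cyclin, kinase and CDK inhibitor genes were lower and 2 were higher, against 10.6% and 9.87% of all tested genes, so that the share of higher genes is near the background. At an unadjusted p under 0.05, 6 were lower and 4 higher, against 3024 lower and 3061 higher of all 19778 tested genes. The largest falls were in the cyclin E genes *CCNE2*, with 45.1, 41.5 and 42.7 CPM in control and 22.6, 23.4 and 21.8 CPM in IGF2BP3 KD libraries (log2 fold change -0.93), and *CCNE1* (-0.63). The rises were in *CCND3* (0.13) and *CDK6* (0.10), which encode a D cyclin and its kinase partner. Neither rise held in the fit with no low-count filter, and with each library left out in turn 0 or 1 of the list were higher. Of 14 chromatin co-repressors linked to pocket proteins, 4 were lower and 1 was higher, against the same 10.6% and 9.87%. Here too the share of higher genes is near the background. The deacetylase gene *HDAC2* (-0.38) and the methyltransferase gene *SUV39H1* (-0.26) fell most, and the higher gene was *CTBP2* (0.24).

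Most of the genes that E2F and DREAM control at G1/S fell. Of 46 genes of this list, 40 were lower by edgeR, against 10.6% of all tested genes, and 40 by DESeq2, against 2416 of 14581. The median log2 fold change was -0.39, and 0 were higher by either tool or at an unadjusted p under 0.05. Of all genes, 9.87% were higher by edgeR, 2074 of 14581 by DESeq2 and 3061 of 19778 at an unadjusted p under 0.05. The largest falls were in the polymerase alpha gene *POLA1* (-0.83), from 65.2, 65.7 and 66.2 to 39.5, 34.6 and 36.9 CPM, and the checkpoint adaptor *CLSPN* (-0.75), from 50.4, 52.1 and 53.1 to 31.3, 28.5 and 32.4 CPM. Of 40 genes that MYBL2-MuvB and FOXM1 control at G2/M, 15 were lower and 0 were higher by edgeR, against 10.6% and 9.87% of all tested genes. Again 0 were higher by DESeq2 and at an unadjusted p under 0.05, against the same counts over all genes. The median was -0.096. The mitotic checkpoint kinase *BUB1B* (-0.50) and the spindle protein gene *DLGAP5* (-0.43) fell most. With each library left out in turn, 34 to 37 of the G1/S genes and 12 to 16 of the G2/M genes were lower. Differences between these lists were not tested, and the lists were written from general knowledge of the pathway with earlier results of these libraries known.

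**Figure D5:**
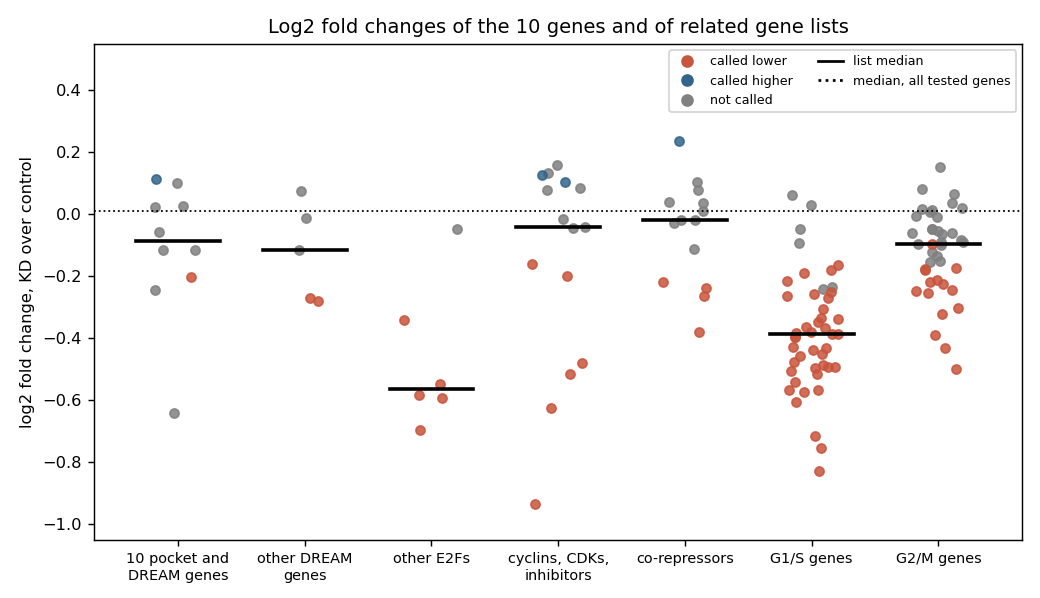
Log2 fold changes between IGF2BP3 KD and control cells of the genes in each list (points, red for called lower, blue for called higher, grey for not called), with the list median (black line) and the median of all tested genes (dotted line). The medians are -0.085 for the 10 genes, -0.56 for the other E2Fs, -0.39 for the G1/S genes and -0.096 for the G2/M genes.

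In their 3′ UTRs, 3 of the 10 genes hold the letters GATTACT, against 7.8% of the 13597 tested genes with an annotated 3′ UTR. The 3 sites are shown because all 3 genes had log2 fold changes below 0, so that direction is no support for the word. In all, 6 of the 10 genes and 9621 of the 19778 tested genes lay below 0. Of the 3 genes, only *LIN54* was called. Coordinates are on hg38, transcripts are the MANE Select ones of GENCODE v44, and capitals mark the word.
*RBL2*, plus strand, chr16:53490505-53490533: taccattcagtGATTACTgtcaaggctgc
*LIN9*, minus strand, chr1:226231652-226231680: cttttaaaccaGATTACTggttaaaatcc
*LIN54*, minus strand, chr4:82927336-82927364: attgtcaaagtGATTACTgggtactatta
The log2 fold changes of these 3 genes were -0.12, -0.25 and -0.20. The other 7 genes, without the word, had values from -0.64 to 0.11, with *RBL1* at -0.12 and *LIN37* the lowest. Over all tested genes with a 3′ UTR, 35.6% of the 1054 with the word and 12.8% of the 12543 without it were lower. This pattern was known before these members were examined and is not independent of them. The 3′ UTRs of *RBL2*, *LIN9* and *LIN54* have 1348, 1344 and 3499 bases and 34.1%, 28.9% and 33.3% GC. The medians over the 13597 genes are 1265 bases and 42.8% GC. Length and base composition were not matched between genes with and without the word. *E2F6* and *DYRK1A* hold it 2 times each, while *E2F1*, *E2F2*, *E2F3* and *E2F4* lack it. None of the 10 genes holds ACACATC in the 3′ UTR, and *MYBL2* holds 1 copy elsewhere in its transcript. This word was found in the 3′ UTR of 1298 genes (9.5%), of which 28.5% were higher, against 11.6% of genes without it. The letters UGGAC were taken as a binding motif of IGF2BP3. They occurred in the 3′ UTR of 6 of the 10 genes, with 1 to 4 copies in each, against 61.4% of tested genes. No binding was measured in these libraries, and the part of these words in the changes was not tested.

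Over the 6 libraries, the profile of *TFDP1* was most like that of *TAF6* among 11201 genes with a symbol and a mean of at least 5 CPM, with a root mean square difference of 0.014 on the log2 scale. That of *LIN54* was most like *PUSL1* (0.0067). These are descriptions from 6 values each.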

How the data were processed

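RNA-seq of OE-19 cells comprised 3 control and 3 IGF2BP3 KD libraries (poly(A) RNA, a directional NEBNext kit). Per the labels and the study's methods, reads were processed with fastp, mapped to hg38 with HISAT2 and counted with featureCounts, and the authors deposited raw counts per gene. Versions, annotation release and strand setting are not given in the sources used here. Each column was matched to its sample by the label in the sample's description, which is Puro for the control libraries. Of 60612 rows, 132 repeats of 44 identifiers were left out.

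The quasi-likelihood test of edgeR 4.0.16 (R 4.3.3; glmQLFit, glmQLFTest) was run on all 6 libraries with no covariate, after filterByExpr (smallest count 10, smallest total 15) and TMM scaling. Benjamini-Hochberg adjustment ran over 19778 genes, with a threshold of 0.05. The standard error is the log2 fold change divided by the root of F, and 95% intervals use the fit's degrees of freedom. The code was tested on simulated data. Chi-square per degree of freedom between libraries of a group was 9.86 to 17.6, so none repeats another. Ratios were tested with exact permutations. Alternatives were DESeq2 1.42.0, RLE scaling, other filters, a replicate block, each library left out, and, chosen after seeing the data, *LIN37* summed with ENSG00000188223.

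The named genes are the 10 members, *IGF2BP3*, the other DREAM and E2F genes, the largest called changes of each other list (up to 2 each way), and for each called member the gene with the closest profile of log2(CPM + 0.5). The members and lists were chosen with earlier results of these data known. GENCODE v44 (hg38) held 99.97% of the tested genes. Python 3.11.15 was used for sequences and plots.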

Additional observations from a re-analysis of the deposited data

How the results depend on the processing

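With DESeq2, 3 of the 10 genes were lower (*LIN54*, *LIN9*, *RBL2*) and 2 higher (*TFDP1*, *MYBL2*). Over all genes it called 2416 lower and 2074 higher of 14581 with an adjusted p. The counts for the 10 genes were the same with at least 10 counts in every library, a filter that leaves *LIN37* out. That filter gave 2319 lower and 2096 higher of 17116 genes. With no low-count filter, 0 of the 10 genes and 0 of the cyclin, kinase and inhibitor list were higher, against 1354 of 38462 genes. With each library left out in turn, 0 to 2 of the 10 genes were lower and 0 to 1 higher. In these fits 1 to 2 of the other DREAM genes were lower, and 0 to 1 of the cyclin, kinase and inhibitor list were higher. Over all genes, 1641 to 1970 were lower and 1414 to 1741 higher, of 20562 to 20725 tested. The cause of the shifts between fits was not tested. Each left-out fit has 5 libraries, and the other fits have all 6. The log2 fold change of *RB1* crossed 0 (-0.0054 to 0.054), and so did the *RBL1* to *RBL2* ratio (-0.024 to 0.019). The other ratios, and the counts of lower E2F, cyclin and kinase, co-repressor, G1/S and G2/M genes, kept their direction in all these fits. RLE scaling changed no call among the 10 genes.

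The replicate number as a block gave 2 lower and 2 higher of the 10 genes, adding *LIN9* and *MYBL2*, and 2026 lower and 1875 higher of all tested genes against 2088 and 1953. Same-numbered libraries did not deviate together (correlations -0.032 to -0.0045 across genes), and no sample correlated best with its own number, so the numbers were not taken as pairs. Paired by number, the *MYBL2* to *FOXM1* ratio differed by 0.16 (exact sign-flip p = 0.25, the smallest possible).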
